A study of Homo sapiens with 18 samples.

Results

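PANC1 and COLO357 are human cell lines established from pancreatic ductal adenocarcinoma, and the comparison set all 6 libraries labelled PANC1 against all 6 labelled COLO357, 12 of the 18 libraries of the series, paired by the small interfering RNA (siRNA) used. The series measured gene expression by RNA sequencing of ribosome-depleted total RNA after knock-down of the histone methyltransferases KMT2C and KMT2D in these lines and in SUIT2. In each line 1 library came from cells given Control siRNA, 2 from cells given KMT2D siRNA1 or siRNA2, and 3 from cells given KMT2C siRNA1, siRNA2 or siRNA3, all 48 h after transfection. No library came from untransfected cells, so every level below is that of a transfected culture, and the 6 libraries of a line differ in siRNA and are not repeats of 1 condition. Each line is a single established line, and the labels do not state whether the libraries are from separate cultures, so p-values measure only the spread between these libraries. A gene was called where edgeR's quasi-likelihood test with siRNA name as block gave a Benjamini-Hochberg adjusted p under 0.05 and the direction also held between the 2 Control siRNA libraries. Levels are CPM (counts scaled to a common library size) after TMM normalisation, log2 fold changes are PANC1 against COLO357 (positive where PANC1 was higher), and levels were compared only within a gene.

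Carcinomas of the pancreatic duct vary between an epithelial state, held together by E-cadherin, desmosomes, tight junctions and simple keratins, and a mesenchymal state marked by vimentin, N-cadherin and the repressors ZEB1 and SNAI1. Expression studies of tumours further separate a classical subtype, with GATA6, mucins and gut-like secretory genes, from a basal-like subtype with squamous keratins and TP63. Cell lines keep part of this variation, together with the gene deletions and mutations of the tumour they came from.

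Gene counts per library ranged from 17974599 to 32115894 in PANC1 and from 15822531 to 23950329 in COLO357. Read pairs assigned to no gene made up 32.98% to 38.91% of those listed in PANC1 and 38.51% to 53.39% in COLO357. The COLO357 library labelled KMT2C siRNA3 stood apart, with 30.36% of its read pairs in no annotated feature against at most 14.51% in the other COLO357 libraries, and the counts of called genes are given below with and without it. KMT2C lay between 63.1% and 117% of the same line's Control siRNA level in the 3 PANC1 libraries labelled KMT2C siRNA and between 49.4% and 85.3% in those of COLO357. The 117% belonged to the PANC1 library labelled KMT2C siRNA2, where KMT2C was therefore not below control. KMT2D lay at 81.9% and 86.5% of control with KMT2D siRNA in PANC1 and at 43% and 44.3% in COLO357. The other methyltransferase was above control in several libraries, KMT2D reaching 375% in the PANC1 library labelled KMT2C siRNA2 and 216% in COLO357 with KMT2C siRNA3, and KMT2C reaching 280% in PANC1 with KMT2D siRNA2. KRT8, KRT18, KRT19, EPCAM and SOX9, markers of pancreatic ductal carcinoma cells, were detected in every library of both lines, while KRT7 and MUC1 were at most 2.93 and 3.63 CPM in PANC1. Of the fibroblast markers, DCN had at most 1 count in a library and LUM at most 21, but COL1A1 reached 176 CPM in PANC1 libraries and 149 CPM in those of COLO357. PTPRC, CD3E and CD68 of leukocytes had at most 3 counts in any library but CD14 had 5 to 22 in PANC1 and 1 to 15 in COLO357, PECAM1 of endothelium had 0, and PNLIP, INS, GCG and SST of acinar cells and islets had 0. No member of the list of acinar and islet markers passed the filter on low counts.

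The lines differed in most genes. Of 16594 genes tested, 12143 (73.2%) were called, 5947 higher in PANC1 (35.8%) and 6196 higher in COLO357 (37.3%). A further 262 genes had an adjusted p under 0.05 in edgeR's test but the opposite direction between the Control siRNA libraries, none with a log2 fold change beyond 1.93. Because a call alone says little against that background, a second rule also asked for at least a 4-fold difference, which 3556 genes passed (21.4%), 1479 higher in PANC1 (8.91%) and 2077 higher in COLO357 (12.5%). The 6 libraries of a line did not overlap with those of the other in 8151 genes (49.1%) and in 3520 of the 3556. Without the COLO357 KMT2C siRNA3 library 11878 genes were called and 3684 passed the 4-fold rule. In 3555 of the 3556 the direction was the same in all 6 siRNA pairs, and in 2438 (68.6%) every pair differed by at least 4-fold. The median log2 fold change of all genes was -0.04, and the first principal component, which separated the lines, held 89.6% of the variance. Counts of called members in the gene lists below are to be read against these shares of all genes called. Members low in both lines did not pass the filter on low counts and are left out of them.

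Of the 26 genes of epithelial adhesion and polarity tested, 25 were called higher in COLO357, 18 of them at least 4-fold, and 1 was called higher in PANC1. Among all genes, 37.3% and 35.8% were called in these directions. CDH1, which encodes E-cadherin, lay between 4.53 and 18.1 CPM (median 13) in PANC1 and between 148 and 201 CPM (median 168) in COLO357. EPCAM, a surface adhesion protein of epithelia, lay between 9.29 and 19.2 CPM in PANC1 and between 176 and 307 CPM in COLO357. The lines did not overlap in either gene, and the log2 fold changes were -3.91 (SE 0.295, adjusted p = 1.37e-06) for CDH1 and -4.06 (SE 0.136, adjusted p = 2.24e-13) for EPCAM. Both transcripts were thus lower in PANC1 and still detected in each of its libraries.

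Several epithelial regulators and surface proteins were near 0 in PANC1. KLF5, a transcription factor of gut and duct epithelium, lay between 1.47 and 3.39 CPM in PANC1 and between 337 and 774 CPM in COLO357. EHF, an ETS factor restricted to epithelia, had medians of 0.26 CPM in PANC1 and 189 CPM in COLO357. ST14, which encodes the membrane protease matriptase, had medians of 0.477 and 194 CPM. Log2 fold changes were -8.13 for KLF5, -9.42 for EHF and -8.55 for ST14, with no overlap between the lines. MAL2, a protein of apical transport (-10.49), and PKP2, a desmosomal plaque protein (-6.28), were the other 2 of the 5 members with the smallest p. SPINT2, a protease inhibitor, was the member called higher in PANC1, by 0.34 and with overlapping ranges, a call lost without KMT2C siRNA3 (0.28, adjusted p = 0.053). The epithelial splicing factor ESRP2 differed less, with 14.2 to 26 CPM in PANC1 and 32.3 to 66.5 CPM in COLO357 (-1.43). OVOL2, a repressor of mesenchymal genes, was at most 0.179 CPM in PANC1 and at most 2.01 CPM in COLO357 (-4.89). GRHL2, another such repressor, had at most 2 counts in a PANC1 library and 4 in a COLO357 library and was not tested.

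Tight junction genes differed less. Of 12 tested, 10 were called higher in COLO357 but only 2 of them at least 4-fold, CLDN7 (-3.59) and CLDN16 (-3.07). The shares of all genes were 37.3% called higher in COLO357 and 12.5% at least 4-fold. CLDN4 lay between 14.1 and 38.4 CPM in PANC1 and between 12.5 and 73 CPM in COLO357 and was not called (-0.29, adjusted p = 0.462). OCLN, which encodes occludin, went the other way, with 36.6 to 82.7 CPM in PANC1 against 8.39 to 18.3 CPM in COLO357 (2.38, adjusted p = 3.56e-07).

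**Figure D1:**
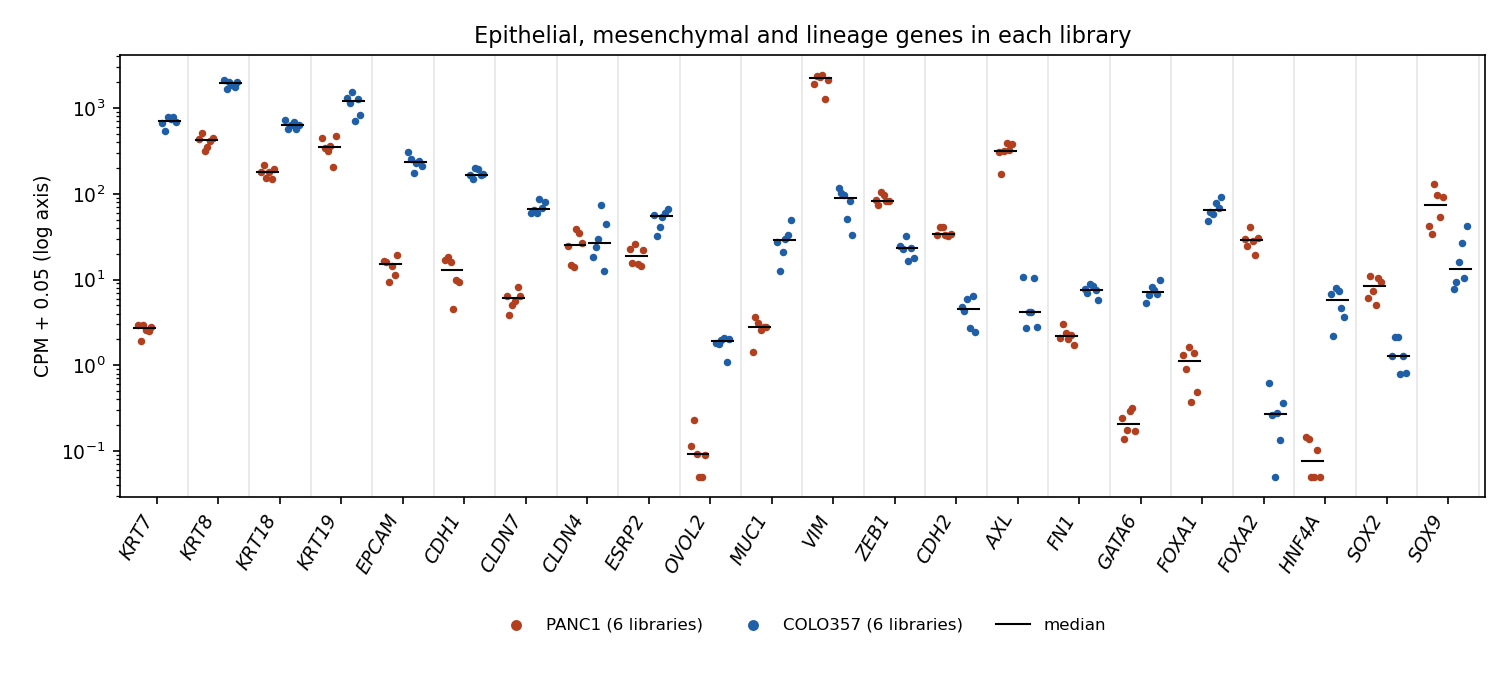
Level of 22 genes in each of the 6 PANC1 and 6 COLO357 libraries, as CPM plus 0.05 on a log axis, 1 point per library with a line at the median. KRT7, EPCAM, CDH1 and FOXA1 were lower in every PANC1 library than in any COLO357 library, VIM, AXL and FOXA2 were higher, and the ranges overlapped for CLDN4 and SOX9.

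Keratins followed the epithelial genes. Of 18 keratins, 14 were tested. Among these, 12 were called higher in COLO357, 10 of them at least 4-fold, against 37.3% and 12.5% of all genes. The median log2 fold change was -5.41, and -0.04 over all genes. A keratin near 0 in PANC1 could pass the filter only through COLO357, so the count and median leave out members low in both lines. KRT14 and KRT20, with at most 11 and 3 counts in a library, were not tested. KRT7, the keratin of simple ductal epithelium, lay between 1.88 and 2.93 CPM in PANC1 and between 542 and 794 CPM in COLO357, a 272-fold difference that varied little over the siRNA pairs (log2 -8.26 to -7.81). KRT8, KRT18 and KRT19, also of simple epithelium, were abundant in both lines and 4.67-fold, 3.58-fold and 3.18-fold higher in COLO357. KRT5 and KRT17, keratins of basal and squamous cells, were at most 0.92 and 0.349 CPM in PANC1 and between 889 and 1860 CPM and between 425 and 884 CPM in COLO357. KRT80 was the member called higher in PANC1, at 33.3 to 122 CPM against 2.23 to 14.5 CPM (3.12, adjusted p = 1.48e-06). KRT6A (-11.63), KRT81 (-9.49) and KRT86 (-2.97) were called higher in COLO357, but they have near-identical relatives between which the authors' counting could split reads.

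Mesenchymal genes did not move as a block. Of 35 tested, 20 were called higher in PANC1 (15 at least 4-fold) and 11 higher in COLO357 (8 at least 4-fold), with a median of 1.30. Among all genes, 35.8% and 37.3% were called in these directions, and 8.91% and 12.5% passed the 4-fold rule. VIM, which encodes the intermediate filament vimentin, lay between 1260 and 2415 CPM in PANC1 and between 32.9 and 118 CPM in COLO357 (4.77, SE 0.321, adjusted p = 9.18e-07). AXL, a receptor tyrosine kinase of mesenchymal carcinoma cells, lay between 168 and 392 CPM in PANC1 and between 2.66 and 10.6 CPM in COLO357. VIM and AXL did not overlap between the lines and were 27.3-fold and 59.1-fold higher in PANC1. ITGA5, the fibronectin receptor subunit (4.13), and S100A4, a calcium-binding protein of motile cells (3.64), were also higher in PANC1, as were CDH2, which encodes N-cadherin (3.07), and the repressor ZEB1 (1.95). TWIST2 had no count in COLO357 and at most 1.4 CPM in PANC1, at least 41-fold higher against a floor of 3 counts over the 6 COLO357 libraries.

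The members higher in COLO357 included the repressor SNAI2 and several contractile and matrix genes. SNAI2 lay between 0.0317 and 0.539 CPM in PANC1 and between 22.8 and 64.9 CPM in COLO357 (-7.64, SE 0.33, adjusted p = 9.91e-11). CALD1, which encodes the actin-binding caldesmon, had medians of 1.74 CPM in PANC1 and 72.6 CPM in COLO357 (-5.37). WNT5A, a ligand of non-canonical WNT signalling, had medians of 2.66 and 104 CPM (-5.28). TAGLN, another actin-binding protein (-4.82), the matrix protein TNC (-4.46) and the collagen cross-linking enzyme LOX (-4.42) had the same direction, with no overlap. FN1, which encodes fibronectin and is often used as a mesenchymal marker, was low in both lines and 3.42-fold higher in COLO357 (up to 2.96 and 8.93 CPM). COLO357 thus held the higher level of E-cadherin and of SNAI2, and PANC1 the higher level of vimentin, ZEB1 and SNAI1 (2.66).

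Most of the classical and basal-like tumour genes tested were higher in COLO357. Of 31 classical genes, 15 passed the filter on low counts. Of these, 13 were called higher in COLO357, 11 of them at least 4-fold, and the median was -6.45. Of 29 basal-like genes, 18 passed the filter. Among those, 15 were called higher in COLO357, 14 at least 4-fold, with a median of -9.41 (-8.93 with genes that had no count in PANC1 set at their bound). A member near 0 in PANC1 could pass the filter only through COLO357, so these counts and medians leave out members low in both lines. FAM83A stands in both lists, so the 2 counts share a gene. Among all genes tested, 37.3% were called higher in COLO357 and 12.5% at least 4-fold. ANXA10, a classical gene of gastric-type epithelium, was at most 0.19 CPM in PANC1 and between 93.4 and 283 CPM in COLO357 (-11.66). S100P, a secreted calcium-binding protein, was at most 0.242 CPM in PANC1 and between 105 and 201 CPM in COLO357 (-11.09). TP63, the regulator of squamous fate, was at most 0.224 CPM in PANC1 and between 41.2 and 104 CPM in COLO357 (-9.50). The summed mean level of the list in PANC1 and COLO357 was 325 and 1268 CPM for classical genes and 82.2 and 3801 CPM for basal-like genes.

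Some members went against the lists. CDH17, the liver-intestine cadherin, lay between 2.15 and 3.65 CPM in PANC1 and had 2 counts in all in the COLO357 libraries, a 194-fold difference with a 95% counting interval of 53.6 to 1600. AGR2, a disulphide isomerase of secretory cells, was 1.84-fold higher in PANC1 with overlapping ranges (0.88, adjusted p = 0.000108). CTSV (1.09) and SCNN1D (2.21) of the basal-like list were also called higher in PANC1. TFF2, REG4 and CTSE of the classical list had at most 4 counts in a library of either line. Among 7 mucins tested, MUC13, MUC5AC, MUC16, MUC5B, MUC1 and MUC6 were at least 4-fold higher in COLO357 (median over the list -3.91), and MUC12 was higher in PANC1 (3.77). MUC5AC, a gel-forming mucin of gastric-type epithelium, was at most 0.162 CPM in PANC1 and between 6.37 and 20.5 CPM in COLO357.

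Transcription factors of pancreas and endoderm split between the lines. Of 22 tested, 7 were called higher in PANC1 (5 at least 4-fold) and 12 higher in COLO357 (10 at least 4-fold), with a median of -1.46. The shares of all genes called were 35.8% and 37.3%. FOXA1, a pioneer factor of endoderm, lay between 0.318 and 1.59 CPM in PANC1 and between 48.4 and 91.4 CPM in COLO357 (-6.12, SE 0.356, adjusted p = 8.32e-08). Its paralogue FOXA2 lay between 19.5 and 40.5 CPM in PANC1 and between 0 and 0.57 CPM in COLO357 (6.96, SE 0.342, adjusted p = 5.2e-10). The 2 FOXA genes therefore differed in opposite directions with no overlap, and the long noncoding RNA LINC00261, a neighbour of FOXA2 on chromosome 20, was also higher in PANC1, at 6.59 to 35.1 CPM against at most 0.0858 CPM. GATA6, the defining factor of the classical subtype, was at most 0.269 CPM in PANC1 and between 5.27 and 9.93 CPM in COLO357 (-5.36). HNF4A, a regulator of gut and liver epithelium, was at most 0.0952 CPM in PANC1 and between 2.14 and 7.86 CPM in COLO357 (-6.87). MECOM, a zinc finger factor, had the largest difference of the list, with medians of 0.0957 and 211 CPM (-10.52). NR5A2, a nuclear receptor of acinar cells (4.05), SOX2 of foregut progenitors (2.60) and SOX9 of duct cells (2.12) were higher in PANC1, SOX9 with overlapping ranges. PDX1 had at most 14 counts in a library and was not tested.

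Of 15 neural and neuroendocrine genes tested, 5 were called higher in PANC1 and 7 higher in COLO357. The shares over all genes were 35.8% and 37.3%. L1CAM, a neural adhesion molecule, lay between 102 and 253 CPM in PANC1 and between 5.62 and 33.8 CPM in COLO357 (3.05). SYP, which encodes synaptophysin, lay between 5.96 and 9.59 CPM and between 0.643 and 1.21 CPM (3.23). PCSK1, a prohormone convertase, had at most 0.0539 CPM in PANC1 and between 11.4 and 21.1 CPM in COLO357, a 791-fold difference (95% counting interval 271 to 3833). The list median was -0.70, and 3 and 6 members passed the 4-fold rule in the 2 directions, against 8.91% and 12.5% of all genes.

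HOX genes, which give cells their position along the body axis, had more members higher in PANC1 than in COLO357. Of 25 tested, 20 were called higher in PANC1, 11 of them at least 4-fold, and 4 higher in COLO357, each at least 4-fold, with a median of 1.65. The shares of all genes called were 35.8% and 37.3%. All 7 HOXC genes tested were called higher in PANC1, among them HOXC9, at 39 to 68.9 CPM against 2.15 to 3.71 CPM (4.22), and HOXC13, at 14.7 to 24.1 CPM against 0.344 to 0.671 CPM (5.16). HOXC6 had a log2 fold change of 3.72 and HOXC10 of 1.00, the latter with overlapping ranges. In the HOXA cluster the direction changed with position. HOXA2, HOXA3 and HOXA5 were higher in PANC1 (1.39 to 2.94), while HOXA10, HOXA11 and HOXA13 were higher in COLO357 (-7.95, -4.88 and -5.02). HOXA10 was at most 0.134 CPM in PANC1 and between 8.54 and 13.6 CPM in COLO357. The same split held for the 2 HOXD genes tested, HOXD3, near 0 in COLO357 and at most 1.72 CPM in PANC1, and HOXD8 (-4.64). HOXB genes differed least, with log2 fold changes from 0.43 (HOXB13, not called) to 2.65 (HOXB5).

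**Figure D2:**
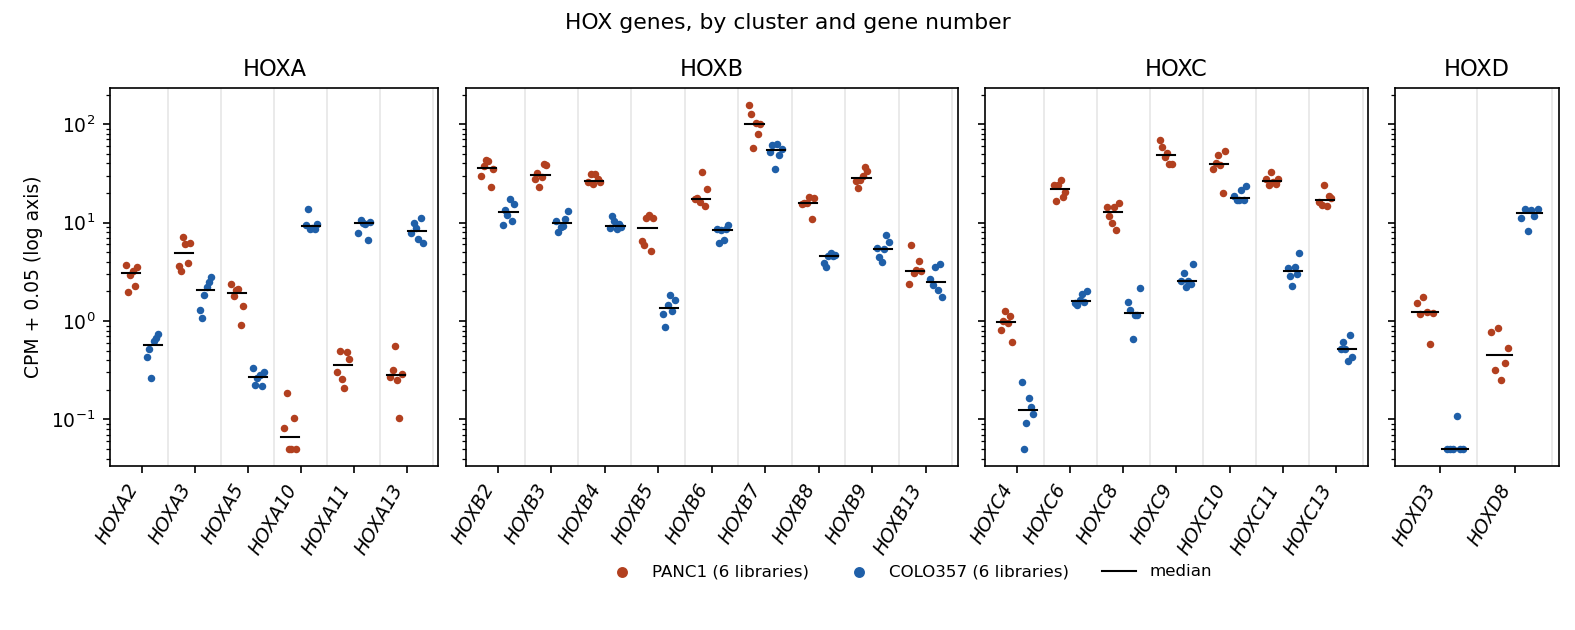
Level of 24 of the 25 HOX genes tested in each PANC1 and COLO357 library, as CPM plus 0.05 on a log axis, grouped by cluster and ordered by gene number, with a line at the median of each line's 6 libraries. PANC1 medians lie above COLO357 medians throughout HOXC and in HOXA2 to HOXA5, and below them for HOXA10, HOXA11, HOXA13 and HOXD8.

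Extracellular matrix genes gave some of the largest differences among abundant transcripts. Of 45 tested, 27 were called higher in COLO357 (20 at least 4-fold) and 12 higher in PANC1 (9 at least 4-fold), with a median of -1.63. Among all genes, 37.3% and 35.8% were called in these directions, and 12.5% and 8.91% passed the 4-fold rule. All 6 genes of type IV collagen, the sheet-forming collagen of basement membranes, were at least 4-fold higher in COLO357. They lie as 3 head-to-head pairs, in which the 2 genes of a pair are transcribed away from each other from neighbouring starts. Shown for each pair is the sequence upstream of the plus-strand gene, up to 250 bases and only where untranscribed from either listed start. Whether it has a part in the levels of these genes was not tested. Sequences are from RefSeq (GRCh38.p14) and not from these libraries, with capitals for bases that fall in the 300-base window (250 bases before to 50 after the start) of both genes.
COL4A2 and COL4A1, chr13:110307158-110307283, plus strand: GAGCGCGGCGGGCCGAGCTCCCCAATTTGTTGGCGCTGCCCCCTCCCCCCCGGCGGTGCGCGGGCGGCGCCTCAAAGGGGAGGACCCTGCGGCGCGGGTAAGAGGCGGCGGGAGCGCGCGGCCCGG
COL4A3 and COL4A4, chr2:227164374-227164623, plus strand: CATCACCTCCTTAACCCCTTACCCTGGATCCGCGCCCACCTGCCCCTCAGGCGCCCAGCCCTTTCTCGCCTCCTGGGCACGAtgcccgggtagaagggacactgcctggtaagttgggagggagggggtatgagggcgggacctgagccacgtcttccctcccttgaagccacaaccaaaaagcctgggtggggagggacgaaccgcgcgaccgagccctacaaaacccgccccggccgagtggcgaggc
COL4A5 and COL4A6, chrX:108439588-108439837, plus strand: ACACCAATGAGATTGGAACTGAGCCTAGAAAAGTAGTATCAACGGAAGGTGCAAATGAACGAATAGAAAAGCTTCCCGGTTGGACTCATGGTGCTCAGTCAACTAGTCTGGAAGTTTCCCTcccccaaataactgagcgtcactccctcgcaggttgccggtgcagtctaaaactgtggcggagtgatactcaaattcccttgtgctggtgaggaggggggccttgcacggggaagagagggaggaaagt

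Between the 2 starts of a pair lie 126 bases for COL4A1 and COL4A2, 418 for COL4A3 and COL4A4, and 379 for COL4A5 and the nearer of the 2 starts listed for COL4A6. The COL4A1 and COL4A2 stretch shown (126 bases) holds 20 CG steps at 80.2% GC. The COL4A3 and COL4A4 stretch (250 bases) holds 17 at 66.4% GC, and the COL4A5 and COL4A6 stretch (250 bases) 8 at 51.2% GC. These last 2 stretches cover only part of the bases between the starts. Of the 35116 windows of this kind in the RefSeq table, 16.3% overlap the window of another gene on the opposite strand.

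COL4A1 lay between 0.126 and 0.317 CPM in PANC1 and between 354 and 572 CPM in COLO357, and COL4A2 between 0.0837 and 0.403 CPM and between 362 and 702 CPM. The log2 fold change was -11.22 for both (SE 0.186 and 0.242, adjusted p = 4.69e-16 and 8.23e-15). COL4A3 had medians of 0.175 and 11.1 CPM (64.1-fold) and COL4A4 of 0.372 and 42.3 CPM (-6.63). COL4A5, on chromosome X, had medians of 1.14 and 74.5 CPM (-5.87) and COL4A6 of 0.147 and 60.7 CPM (-8.39). None of the 6 genes overlapped between the lines. In SUIT2 the medians of the 6 genes lay between 0.112 and 0.881 CPM.

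The nidogens, which link type IV collagen to laminin, went in opposite directions. NID2 lay between 0.377 and 1.12 CPM in PANC1 and between 465 and 742 CPM in COLO357 (-9.69, SE 0.226, adjusted p = 2.73e-14). NID1 lay between 43.9 and 196 CPM in PANC1 and between 0.095 and 0.257 CPM in COLO357 (8.97, SE 0.244, adjusted p = 3.28e-14). Each line thus expressed 1 nidogen gene and was near 0 for the other. LAMB3 and LAMA3, chains of a laminin found under stratified epithelium, were 253-fold and 27.1-fold higher in COLO357. Members higher in PANC1 included COL18A1 (16-fold), the perlecan gene HSPG2 (2.61), COL5A2 (4.86) and SPARC (5.87).

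**Figure D3:**
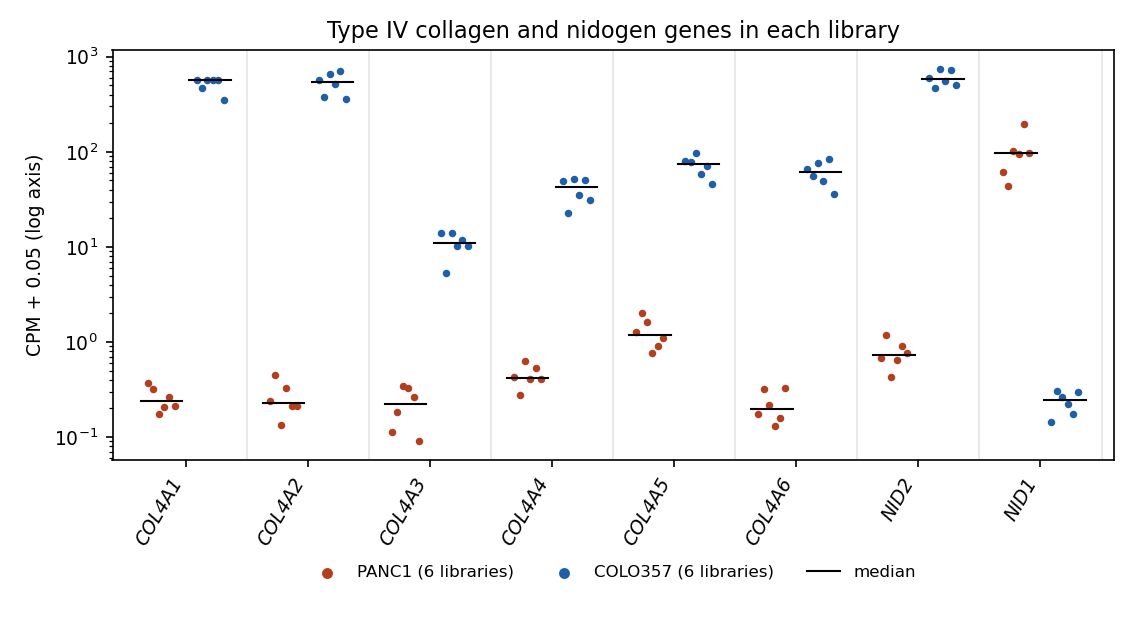
Level of the 6 type IV collagen genes and 2 nidogen genes in each PANC1 and COLO357 library, as CPM plus 0.05 on a log axis with a line at the median. PANC1 libraries lie at or below 1.97 CPM for all 6 collagens and COLO357 libraries at or above 5.27 CPM, and the 2 nidogens are reversed relative to each other.

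Integrins, the receptors for these matrices, changed by subunit. Of 15 tested, 9 were called higher in PANC1 (4 at least 4-fold) and 5 higher in COLO357 (4 at least 4-fold), with a median of 0.99. The shares of all genes called were 35.8% and 37.3%, and 8.91% and 12.5% passed the 4-fold rule. ITGB4, which with ITGA6 forms the laminin receptor of hemidesmosomes, lay between 1.88 and 8.1 CPM in PANC1 and between 191 and 335 CPM in COLO357 (-5.94), while ITGA6 differed by -0.39 with overlapping ranges. ITGB6, ITGB8 and ITGA1 were also higher in COLO357 (-7.82, -4.80 and -4.77). ITGB5 lay between 366 and 831 CPM in PANC1 and between 25.7 and 34.6 CPM in COLO357 (4.34). ITGB3 had 4.79 to 13 CPM in PANC1 and at most 0.0475 CPM in COLO357, a 665-fold difference (95% counting interval 184 to 5490). ITGAV, the alpha chain that pairs with ITGB3, ITGB5, ITGB6 and ITGB8, was 2.09-fold higher in PANC1 (1.07).

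Of 30 tumour suppressors and drivers tested, 12 were called in each direction, near the shares of all genes (35.8% and 37.3%), with 3 at least 4-fold higher in PANC1 and 5 higher in COLO357. CDKN2A, which encodes the cell cycle inhibitors p16 and p14ARF and is known to be deleted in PANC-1, was at most 0.0952 CPM in PANC1 and between 29.6 and 42.3 CPM in COLO357. CDKN2B, its neighbour encoding p15, was at most 0.0635 CPM in PANC1 and between 25.1 and 62.7 CPM in COLO357. MTAP, the next gene on the other side and a methionine salvage enzyme, lay between 0.419 and 1.57 CPM in PANC1 and between 59.9 and 149 CPM in COLO357. MTAP was 103-fold higher in COLO357 and CDKN2A 1077-fold, with no overlap for any of the 3. Beyond MTAP, IFNE (-3.13) was at most 2.27 CPM in any library, and KLHL9 differed by -0.61 with 28.9 CPM on average in PANC1. Beyond CDKN2B, DMRTA1 was higher in PANC1 (1.66). KLHL9 and DMRTA1, the first genes on each side with clear PANC1 expression, were 3 and 2 tested genes from CDKN2A. MLLT3 (-4.44) and HACD4 (-3.08), 6 and 4 tested genes away, were also at least 4-fold higher in COLO357, with FOCAD (-0.67) between them.

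SMAD4, the signal transducer of TGF-beta that is often lost in pancreatic cancer, lay between 39.7 and 55.3 CPM in PANC1 and between 21.3 and 24.1 CPM in COLO357 (0.99, SE 0.118, adjusted p = 1.14e-06). It was thus detected in both lines and 1.99-fold higher in PANC1, whereas its median in SUIT2 was 0.145 CPM. Of the 12 tested neighbours, 9 were called higher in PANC1, 3 of them at least 4-fold, against 35.8% and 8.91% of all genes. RAB27B (-0.64), CCDC68 (-1.80) and MAPK4 were called higher in COLO357. MAPK4 had no count in PANC1 and 2.36 to 14.4 CPM in COLO357, at least 449-fold higher. Protein-coding genes of chromosome 18 had a median log2 fold change of 0.57. The medians of chromosomes ran from -0.69 (chromosome 13), -0.60 (chromosome 9) and -0.53 (chromosome 4) to 0.59 (chromosome 10) and 0.72 (chromosome X). Copy number was not analysed here, and its part in these medians was not tested.

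**Figure D4:**
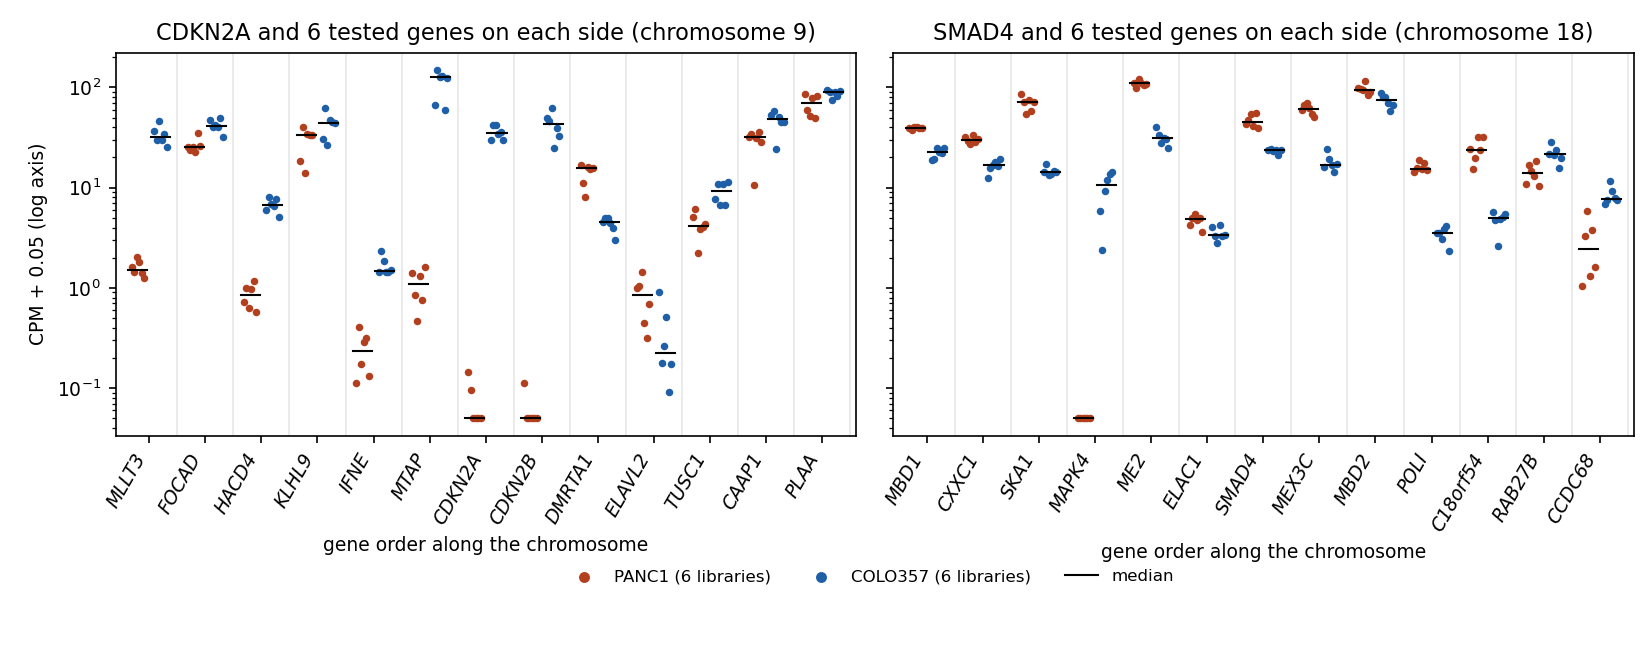
Level of CDKN2A, SMAD4 and the 6 nearest tested protein-coding genes on each side, in gene order, in each PANC1 and COLO357 library, as CPM plus 0.05 on a log axis with a line at the median. In PANC1 the points of CDKN2A and CDKN2B lie at or below 0.0952 CPM and those of MTAP at or below 1.57 CPM, while KLHL9 and DMRTA1 were expressed in both lines, and SMAD4 lies at or above 21.3 CPM in both.

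STK11, which encodes the kinase LKB1, lay between 80.7 and 108 CPM in PANC1 and between 1.46 and 3.58 CPM in COLO357 (5.24, SE 0.192, adjusted p = 2.24e-12). STK11 was thus low in every COLO357 library, with no overlap between the lines. RNF43, a ubiquitin ligase that removes WNT receptors, lay between 0.323 and 0.753 CPM in PANC1 and between 36.2 and 48.6 CPM in COLO357 (-6.35). Of 29 cyclin-dependent kinase inhibitors and damage-response genes tested, 11 were called higher in PANC1 and 9 higher in COLO357, near the shares of all genes (35.8% and 37.3%), and the median was 0.23. CDKN1A, which encodes p21, had medians of 11.8 and 58.6 CPM (-2.11), and the death receptor FAS (-2.98), BTG2 (-4.58), an antiproliferative factor, and PHLDA3 (-2.47) were also higher in COLO357.

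Of 37 genes of TGF-beta and SMAD signalling tested, 20 were called higher in PANC1 (7 at least 4-fold) and 11 higher in COLO357 (5 at least 4-fold), with a median of 0.48. Over all genes, 35.8% and 37.3% were called in these directions and 8.91% and 12.5% passed the 4-fold rule. Among receptors, TGFBR1 was higher in COLO357 (-2.15) and the co-receptor ENG in PANC1 (4.62). SMAD3, the receptor-activated transducer, lay between 179 and 360 CPM in PANC1 and between 37.8 and 60.1 CPM in COLO357 (2.53). LTBP2, a protein of microfibrils, lay between 192 and 376 CPM and between 2.26 and 5.66 CPM (5.89). BMPR1B, a BMP receptor (-4.21), and FST, which encodes the activin inhibitor follistatin (-8.47), were higher in COLO357. The inhibitor of differentiation ID1, a common BMP target, was not called (-0.30, adjusted p = 0.156).

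Within the WNT pathway, ligands, receptors and inhibitors each had members higher in either line. Of 34 tested, 12 were called higher in PANC1 (8 at least 4-fold) and 17 higher in COLO357 (10 at least 4-fold), with a median of -0.43. For all genes the shares were 35.8% and 37.3% called, and 8.91% and 12.5% past the 4-fold rule. The secreted antagonists DKK1, DKK3 and SFRP1 were higher in PANC1, while RNF43, which also limits WNT signalling, was higher in COLO357. SFRP1 lay between 38.8 and 102 CPM in PANC1 and was at most 0.129 CPM in COLO357 (1024-fold), and DKK3 lay between 77.5 and 124 CPM and between 0.143 and 0.515 CPM (8.36). The receptor FZD10 was at most 0.0896 CPM in PANC1 and between 74.7 and 132 CPM in COLO357 (-11.24). The ligand WNT7A (-7.58) was also near 0 in PANC1. AXIN2, a common target of canonical signalling, was low in both lines and not called (-0.35, adjusted p = 0.29), but was called without KMT2C siRNA2 (-0.63, adjusted p = 0.0471).

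Of 30 receptor tyrosine kinases tested, 11 were called higher in PANC1 (7 at least 4-fold) and 15 higher in COLO357 (8 at least 4-fold), with a median of -0.49, where 35.8% and 37.3% of all genes were called in these directions. MERTK and AXL, of the same TAM family, were both higher in PANC1, MERTK at 23.1 to 80.7 CPM against 0.129 to 0.333 CPM (7.84), while TYRO3, the remaining member, differed by -0.36 with overlapping ranges and lost its call without Control siRNA, KMT2C siRNA1 or KMT2C siRNA2 (-0.26, adjusted p = 0.0962, without the last). ROR1, a WNT5A receptor, lay between 72.5 and 207 CPM in PANC1 and between 3.13 and 6.31 CPM in COLO357 (4.81). Ephrin receptors differed in both directions, with EPHB2 (4.10) and EPHA7 higher in PANC1 and EPHA1 (-6.69) higher in COLO357. EPHA7 lay between 0.808 and 17.2 CPM in PANC1 and was at most 0.0475 CPM in COLO357. ERBB3 (-3.66), the partner of ERBB2, was higher in COLO357. EGFR (0.57) and MET (0.77) had overlapping ranges.

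Detoxification genes were higher in COLO357. Of 29 targets of the oxidative stress factor NRF2 and aldo-keto reductases, 22 were called higher in COLO357 (12 at least 4-fold) and 4 higher in PANC1, with a median of -1.90. Among all genes, 37.3% and 35.8% were called in these directions. AKR1C1 lay between 0.108 and 0.448 CPM in PANC1 and between 269 and 716 CPM in COLO357 (-11.17, SE 0.188, adjusted p = 4.69e-16). AKR1C2 reached 2248 CPM in COLO357 and at most 0.984 CPM in PANC1 (-12.02, SE 0.69, adjusted p = 3.04e-06). AKR1C1, AKR1C2 and AKR1C3 are near-identical, so their separate values are uncertain. GPX2, a glutathione peroxidase (-9.28), ABCC2, an exporter of conjugated drugs (-7.48), and AKR1B10 (-10.44) had the same direction. NQO1, a quinone reductase, was lower in PANC1 (-2.32). HMOX1, which encodes haem oxygenase, went the other way (2.58, adjusted p = 0.00032) with overlapping ranges of 66.6 to 274 CPM in PANC1 and 8.32 to 106 CPM in COLO357. TXNRD1 (0.56) was also called higher in PANC1, but not without KMT2C siRNA2 (0.48, adjusted p = 0.0794) or 3 other siRNA names.

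Aldehyde dehydrogenases showed a similar tilt. Of 16 tested, 11 were called higher in COLO357 (7 at least 4-fold) and 4 higher in PANC1, none of those at least 4-fold, with a median of -1.52. The shares of all genes called were 37.3% and 35.8%. ALDH1A1, which makes retinoic acid, was at most 0.134 CPM in PANC1 and between 73.5 and 242 CPM in COLO357 (-11.64). ALDH3A1, of squamous epithelium, was at most 0.201 CPM in PANC1 and between 174 and 452 CPM in COLO357 (-11.89). ALDH1A3 was instead higher in PANC1 (1.21), with medians of 107 and 42.2 CPM.

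Glycolysis and hypoxia genes were mostly higher in COLO357, 20 of 28 tested (5 at least 4-fold), against 5 higher in PANC1, with a median of -0.91. The glucose transporter SLC2A1 lay between 33.7 and 75 CPM in PANC1 and between 397 and 794 CPM in COLO357 (-3.75). EGLN3, an oxygen-sensing prolyl hydroxylase (-6.57), and CA12, a carbonic anhydrase (-4.13), were also higher in COLO357, as was the glycolytic enzyme GPI (-1.63). BNIP3, another hypoxia-responsive gene, was higher in PANC1 (3.01). Of 29 lipid genes, for making cholesterol and fatty acids, 15 were called higher in COLO357 (3 at least 4-fold) and 8 higher in PANC1. Their median was -0.43, and the shares of all genes called were 37.3% and 35.8%. ELOVL6, a fatty acid elongase (-5.46), and the regulator SREBF1 (-2.17) were higher in COLO357, with no overlap.

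Inflammatory genes gave large differences in both directions. Of 28 tested, 14 were called higher in COLO357 (12 at least 4-fold) and 7 higher in PANC1 (4 at least 4-fold), with a median of -0.43. Among all genes, 37.3% and 35.8% were called in these directions, and 12.5% and 8.91% passed the 4-fold rule. CXCL5, a neutrophil chemokine, was at most 0.793 CPM in PANC1 and between 123 and 1145 CPM in COLO357 (-11.86). PTGS2, which encodes cyclooxygenase 2 (-10.36), CXCL2 (-9.68) and CXCL3 (-9.83) were likewise near 0 in PANC1, and IL6 had 1 count in all in PANC1 against 3.44 to 21.1 CPM in COLO357 (1970-fold, 95% counting interval 354 to 77798). CXCL1 and CXCL8 had detectable levels in PANC1, at 3.82 to 19.4 CPM and 1.34 to 5.73 CPM, against 245 to 1004 CPM and 27.1 to 622 CPM. The monocyte chemokine CCL2 went the other way, at 20.2 to 61.6 CPM in PANC1 and 0.129 to 0.808 CPM in COLO357 (6.39), as did CSF1 (3.73) and the adhesion molecule ICAM1 (3.88). NFKB1 (-0.04, adjusted p = 0.848) and NFKBIA (0.08, adjusted p = 0.762) were not called.

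Of 36 interferon-response genes, 21 were called higher in COLO357 (13 at least 4-fold) and 5 higher in PANC1 (2 at least 4-fold), with a median of -1.54. The shares of all genes called were 37.3% and 35.8%. BST2, which encodes tetherin, was at most 0.121 CPM in PANC1 and between 27.4 and 39.7 CPM in COLO357 (-8.65). IFI44 (-8.82), OAS1 (-7.42) and IFITM1 (-5.35), antiviral effectors, had the same direction. So did IFI44L (-10.18), CMPK2 (-3.96), OAS2 (-3.23) and MX1 (-2.86). SAMD9 lay between 6.85 and 10.9 CPM in PANC1 and between 322 and 594 CPM in COLO357 (-5.80). MX2 and the regulator IRF7 were higher in PANC1, MX2 at 69.8 to 87.6 CPM against 0.258 to 4.76 CPM (5.55) and IRF7 at 10.7 to 16.7 CPM against 0.343 to 1.09 CPM (4.13). ISG15, IFIT1, IFIT2 and IFIT3 were among the 10 members not called, but IFIT2 was called without KMT2C siRNA1 (0.83, adjusted p = 0.0414). IFI27 was higher in COLO357 in every siRNA pair, by log2 values from -7.77 to -2.87. Of 18 genes of MHC class I presentation, 11 were called higher in COLO357 and 1 higher in PANC1, against 37.3% and 35.8% of all genes. The 4-fold rule was passed by 2 of them, HLA-F (-6.07) and the class I activator NLRC5 (-3.14). B2M (-1.26) and HLA-B (-1.29) were higher in COLO357, and reads of HLA genes may be split between near-identical copies.

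Oncofetal genes were higher in PANC1 and MAGE genes in COLO357. The joint list has 36 members, of which 14 were tested. Of those, 8 were called higher in PANC1 (4 at least 4-fold) and 5 higher in COLO357 (all 5 at least 4-fold), with a median of 1.69. Among all genes, 35.8% and 37.3% were called in these directions. LIN28B, a repressor of let-7 microRNAs, lay between 15.9 and 127 CPM in PANC1 and was at most 0.257 CPM in COLO357 (9.59, SE 0.474, adjusted p = 1.15e-08). HMGA2, a let-7 target and chromatin protein, lay between 198 and 428 CPM and between 8.23 and 29.8 CPM (4.36). IGF2BP1, also a let-7 target, lay between 68.4 and 127 CPM and between 10.8 and 19.7 CPM (2.66). The melanoma antigen PRAME was also higher in PANC1 (3.89), while MAGEA3 (-8.14) and MAGEA6 (-7.27), near-identical copies on chromosome X, were higher in COLO357. The imprinted H19 was not called (0.49, adjusted p = 0.387), but was called without KMT2C siRNA2 (0.90, adjusted p = 0.00319).

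Proliferation genes differed little in size. Of 30 genes of G1/S and DNA replication, 11 were called higher in PANC1 and 14 higher in COLO357, but 1 passed the 4-fold rule, against 21.4% of all genes, CCND2 (3.27). CCND1, which encodes cyclin D1, was higher in COLO357 (-1.56). Of 30 genes of G2/M and mitosis, 17 were called higher in PANC1 and 4 higher in COLO357, against 35.8% and 37.3% of all genes. The median was 0.39, and again 1 passed the 4-fold rule. That gene was TPX2, a spindle protein, at 653 to 868 CPM in PANC1 and 166 to 210 CPM in COLO357 (2.12), and BUB1, a spindle checkpoint kinase, was also higher in PANC1 (1.74). MKI67 was not called (0.03, adjusted p = 0.872). Of 17 subunits of KMT2 and related COMPASS complexes, 5 were called higher in PANC1 and 3 higher in COLO357, none at least 4-fold, with a median of 0.01. The shares of all genes called in these directions were 35.8% and 37.3%. KMT2C (-0.35, adjusted p = 0.113) and KMT2D (0.16, adjusted p = 0.567), the siRNA targets, were not called, though KMT2C was without KMT2D siRNA2 (-0.54, adjusted p = 0.00535). The shared subunits ASH2L (-1.20) and WDR5 (-0.72) were higher in COLO357 and DPY30 (1.06) and the KMT2C and KMT2D partner PAXIP1 (0.97) in PANC1. Of 20 housekeeping genes, 6 were called in each direction, where 35.8% (PANC1) and 37.3% (COLO357) of all genes were. Their median was 0.08, and 2 passed the 4-fold rule, among them SDHA (-2.03). ACTB was not called (0.12, adjusted p = 0.324), and GAPDH was lower in PANC1 (-0.97).

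Lists of markers of other cells held some genes that differed. MFAP5, a microfibril protein in the fibroblast list, had no count in PANC1 and between 35.1 and 61.1 CPM in COLO357, at least 2049-fold higher. Of the 6 fibroblast markers tested, 3 were called higher in COLO357 and THY1 (3.63) higher in PANC1, with a median of -0.39. CDH5, the cadherin of endothelium, was at most 0.108 CPM in PANC1 and between 4.59 and 28.6 CPM in COLO357, while PECAM1 had 0 counts in every library of both. ERG, an ETS factor of endothelium, was higher in PANC1 (4.78). Of the leukocyte list, ITGAM was higher in PANC1 (3.04) and CSF1R in COLO357 (-0.97), both below 2 CPM at the median. Whether other cells contributed to these transcripts was not tested, and in bulk RNA fewer cells expressing a gene and less RNA per cell cannot be told apart.

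**Figure D5:**
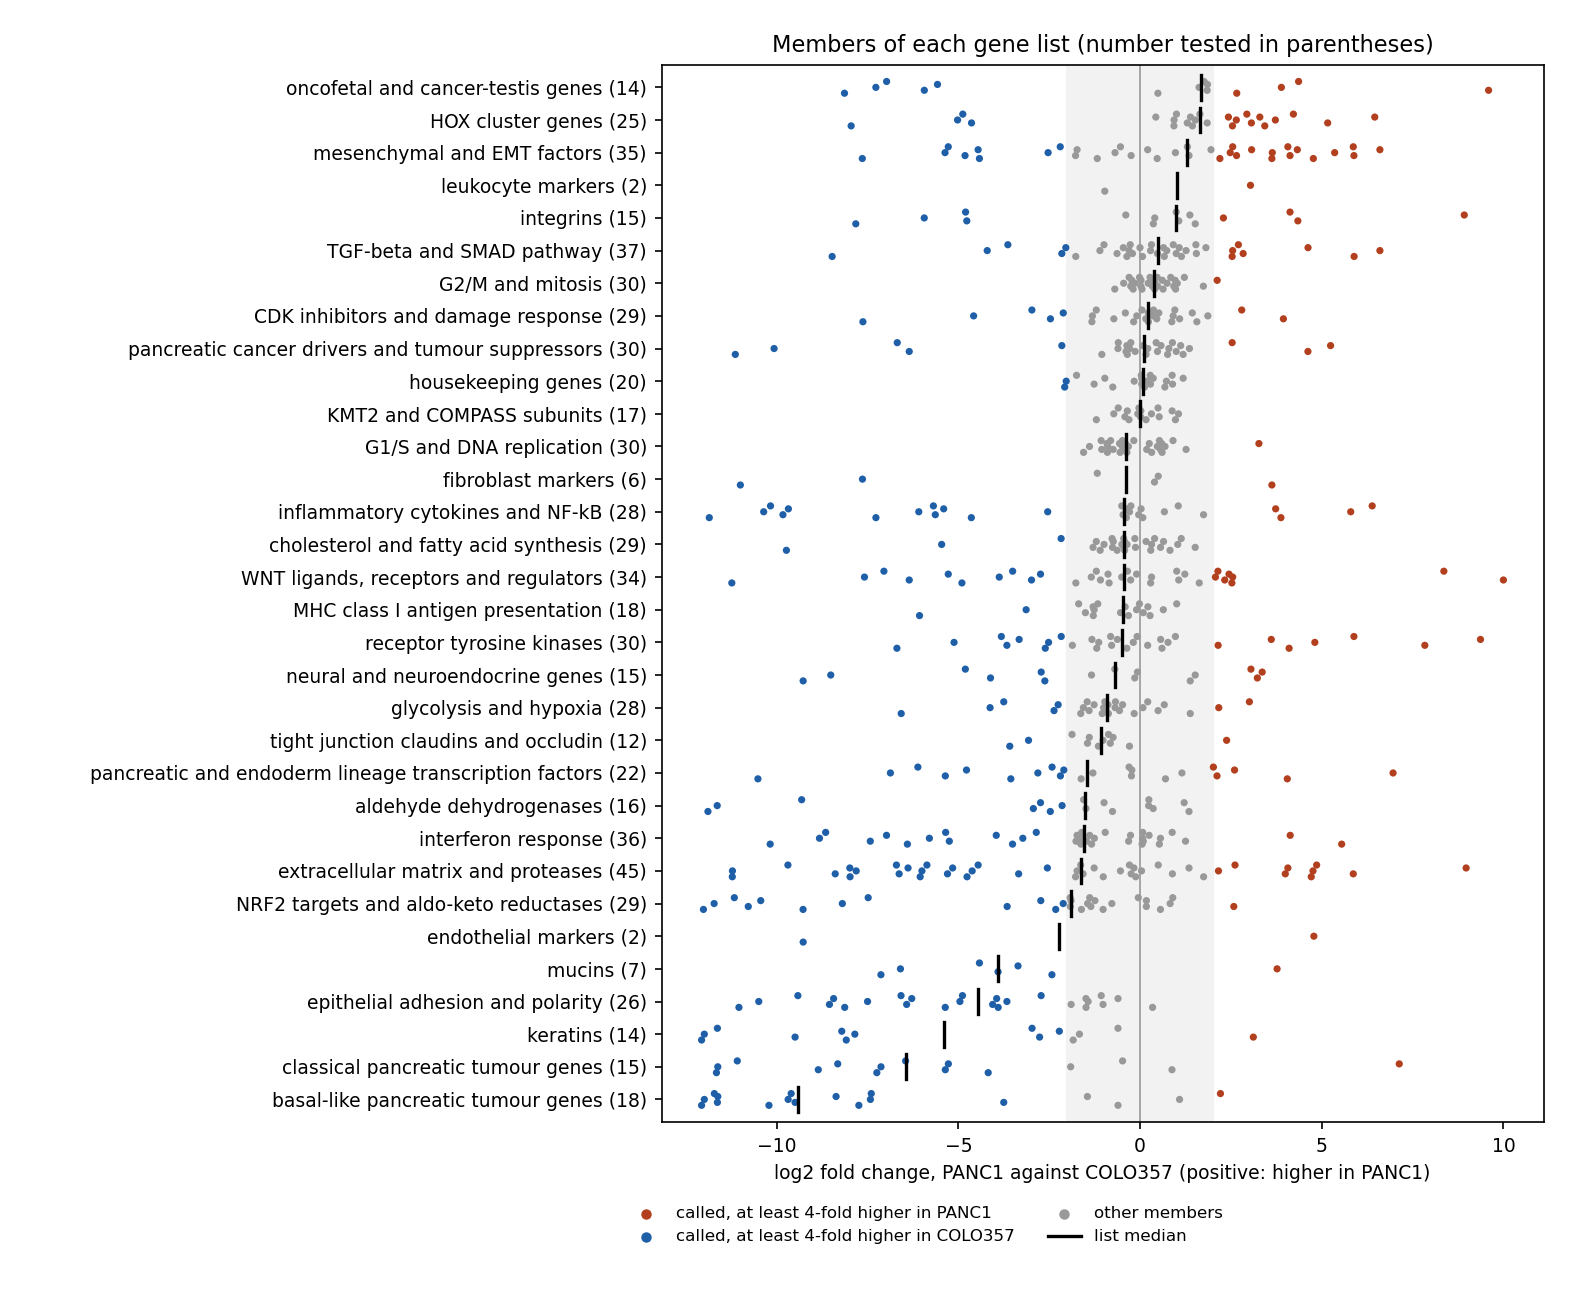
Log2 fold change of PANC1 against COLO357 for each tested member of 32 gene lists, with the number tested in parentheses. Lists are ordered by the median of fitted values (black bar), while points of genes without a count in a line are set at their bound. For basal-like genes the bar is at -9.41 and the median with bounds is -8.93. Coloured points were called and differed at least 4-fold (outside the grey band), and the basal-like, classical, keratin and epithelial lists lie farthest towards COLO357.

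The largest differences in the whole table fell on genes absent or near 0 in 1 line. In 20 genes every COLO357 library had at most 3 counts and every PANC1 library at least 10 CPM, and in 106 genes the reverse held, 15 and 91 of them protein-coding. The protein-coding genes with the largest differences higher in PANC1 are given first. GRIN2A, an NMDA receptor subunit, lay between 41.3 and 153 CPM in PANC1 and was at most 0.129 CPM in COLO357 (10.60). KIF1A, a motor of synaptic vesicle precursors, lay between 273 and 491 CPM in PANC1 and between 0.0628 and 0.804 CPM in COLO357 (10.23). SYT9, a synaptotagmin, lay between 30.4 and 51.9 CPM and was at most 0.115 CPM (1517-fold, 95% counting interval 519 to 7358). LRFN5, a synaptic adhesion protein, and SULT4A1, a brain sulphotransferase, had no count in COLO357 and were at least 371-fold and 247-fold higher in PANC1. The remaining genes were ZNF518B (10.69), STK32B (10.46), KLHL4 (10.44) and 4 without a count in COLO357, THNSL2 (at least 489-fold), MT1A (at least 309-fold), VWDE (at least 292-fold) and FSD1 (at least 247-fold). MT1A belongs to a family of near-identical metallothioneins.

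The abundant genes higher in PANC1 were KIF1A, KLHL4, KCNMA1, JCAD, TM4SF18, CHD5, ANPEP and DKK3. KCNMA1, a calcium-activated potassium channel, lay between 98.4 and 283 CPM in PANC1 and was at most 0.629 CPM in COLO357 (9.57). CHD5, a chromatin remodeller of neurons, lay between 117 and 268 CPM and between 0.168 and 1.07 CPM (8.73). ANPEP, the membrane aminopeptidase CD13, lay between 113 and 345 CPM and between 0.189 and 1.03 CPM (8.63). JCAD, a junctional protein, had a log2 fold change of 9.21 and TM4SF18, a tetraspan membrane protein, of 9.20. Among long noncoding RNAs, MEG3, MEG8 and MIR493HG, transcripts of the imprinted DLK1-MEG3 region of chromosome 14, were all higher in PANC1. MEG3 lay between 38.3 and 112 CPM in PANC1 and was at most 0.129 CPM in COLO357 (9.86), and MEG8 lay between 66.3 and 100 CPM and was at most 0.214 CPM (10.34). Reads of these overlapping transcripts may be shared.

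The same ranking gave the following genes higher in COLO357. DSG3, a desmosomal cadherin of stratified epithelium, had no count in PANC1 and lay between 28.5 and 90.7 CPM in COLO357, at least 2639-fold higher. CFI, complement factor I (at least 1382-fold), CRISPLD1 (at least 1452-fold), PIK3C2G, a lipid kinase (at least 2083-fold), and TCIM (at least 1424-fold) also had no count in PANC1. SERPINB5, which encodes maspin, lay between 109 and 175 CPM in COLO357 and was at most 0.0805 CPM in PANC1 (6501-fold, 95% counting interval 2224 to 31523). SLC1A3, a glutamate transporter, lay between 90.9 and 163 CPM and was at most 0.0448 CPM (6079-fold, 2080 to 29475), and DMBT1, a mucosal defence protein, between 56 and 155 CPM and at most 0.0448 CPM (6074-fold, 1682 to 50157). LCP1, the actin-bundling plastin of leukocytes, lay between 350 and 528 CPM in COLO357 and was at most 0.201 CPM in PANC1 (-12.29). KYNU, which cleaves kynurenine, lay between 291 and 517 CPM and was at most 0.254 CPM (-12.16). The long noncoding RNAs were MIR205HG, a microRNA host (-10.88), CASC9 and SFTA1P without a count in PANC1 (at least 791-fold and 414-fold) and LINP1 (2847-fold, 95% counting interval 511 to 112462).

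The size of a difference varied over the siRNA pairs by a median range of 0.964 in log2 over all genes and 1.47 over those called and at least 4-fold. MUC16 ran from -7.00 to -0.81 over the pairs and LIN28B from 5.74 to 10.48. To ask whether the line difference depended on the target of the siRNA, the difference under KMT2C siRNA was tested against that under KMT2D siRNA, in libraries whose KMT2C and KMT2D levels are given above. With edgeR, 0 of 16594 genes (0%) had an adjusted p under 0.05, the smallest adjusted p was 1, and 656 had an unadjusted p under 0.05, while DESeq2 called 2. The 4 genes with the smallest p were LYPLA1 (1.37, SE 0.261), SCUBE3 (-2.15, SE 0.424), NPIPB3 (-2.90, SE 0.574) and LXN (-1.85, SE 0.38), each with an adjusted p of 1. LXN, which encodes latexin, was higher in PANC1 with every siRNA (log2 3.57 to 6.32).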

How the data were processed

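RNA of 18 transfected cultures of 3 lines was sequenced, and 12 libraries (6 PANC1, 6 COLO357) were analysed here. The deposited values are raw read counts per Ensembl gene, 1 table per library. The submitters' processing notes name FastQC, TopHat2, HTSeq and edgeR and the build hg19, with versions, strand setting and treatment of overlapping genes not given in the sources used here. The 5 closing entries that name no gene were left out of library sizes and tests. Symbols came from GENCODE (GRCh38) by Ensembl identifier and matched 52526 of 63677 identifiers (82.5%), and no coordinate of the authors' build was used. Genes were filtered with edgeR 4.0.16 filterByExpr (minimum count 10, minimum total 15), which left 16594, scaled by TMM (factors 0.968 to 1.03) and fitted with a robust quasi-likelihood model of siRNA name and line (5 residual degrees of freedom, biological coefficient of variation 0.175) in R 4.3.3. A gene near 0 in 1 line could pass the filter only through the other line. The script was tested on simulated data. P-values were adjusted over all genes tested by Benjamini-Hochberg. A gene with 0 counts in a line was given a fold against a floor of 3 counts over that line's 6 libraries, and one with 1 to 3 counts a ratio with a 95% counting interval, which covers counting error only.

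The siRNA name was used as block, as the comparison was defined by it. As a check, the deviations of same-named libraries of the 2 lines from their line means correlated at 0.19 to 0.40 over genes. Each PANC1 library correlated best with the COLO357 library of its own siRNA name. The difference of the line effect between KMT2C and KMT2D siRNAs was fitted with 6 groups and 6 residual degrees of freedom. Alternatives were DESeq2 1.42.0, RLE size factors, no filter, no block, all 18 libraries, and leaving out siRNA names or 1 library.

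The genes and the 33 gene lists (918 entries, 4 without a matching symbol) were chosen with earlier results of these data known. Genes were named by rule: the 12 largest differences in each direction among called protein-coding genes of the same direction in all 6 pairs with a mean of at least 5 CPM in the higher line, the 8 largest with a mean of at least 100 CPM, the 4 largest among long noncoding RNAs, the 4 smallest p of the interaction, up to 5 members with the smallest p in each list and members against most of the list, a set of identity genes, and the neighbours of CDKN2A and SMAD4. Other list members named were chosen after their values were seen. Some genes that this rule names are not reported here.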

Additional observations from a re-analysis of the deposited data

Results flagged for a closer look

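Within each line, the highest and the lowest of the 6 libraries were compared with the nearest other library, as a share of the whole range. Depth measures were compared untransformed, and named genes with a mean of at least 10 CPM on the log2 scale. Of 280 such groups, 21 had a library standing apart by Dixon's test at the 95% level, where chance gives about 1 in 20. The first was the share of read pairs in no annotated feature, 30.36% in the COLO357 library labelled KMT2C siRNA3.

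In PANC1, the KMT2D siRNA1 library was lowest for AXL (168 CPM) and CCND1 (141 CPM) and highest for WDR5 (61.6 CPM). The KMT2D siRNA2 library was highest for CSF1 (209 CPM) and lowest for DPY30 (30.5 CPM). The library labelled KMT2C siRNA2 was highest for FOCAD (35 CPM) and lowest for TPX2 (653 CPM) and VIM (1260 CPM). The KMT2C siRNA1 library was lowest for TXNRD1 (522 CPM), with the other PANC1 libraries between 1487 and 1912 CPM.

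In COLO357, the KMT2D siRNA2 library was highest for KRT17 (884 CPM), LAMA3 (629 CPM), MECOM (278 CPM) and MFAP5 (61.1 CPM). The KMT2D siRNA1 library was lowest for COL4A3 (5.27 CPM) and ERBB3 (11.7 CPM). The KMT2C siRNA2 library was lowest for CXCL5 (123 CPM) and SMAD4 (21.3 CPM), and the KMT2C siRNA1 library was highest for DMBT1 (155 CPM). HLA-B was lowest with KMT2C siRNA3 (54.9 CPM) and MAGEA3 with Control siRNA (8.41 CPM).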

How the results depend on the processing

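The counts of 12143 called genes and 3556 called with at least a 4-fold difference stayed within 1.5 times of these values under every alternative tried except 1. Without a filter on low counts, 6380 genes passed the 4-fold rule, because 38320 genes were then tested. Leaving out 1 siRNA name in both lines, or the COLO357 KMT2C siRNA3 library, gave 11635 to 12064 called genes and 3544 to 3684 past the 4-fold rule. Without the siRNA name as block, 11469 and 3555 were called, and the alternatives called between 94.1% and 99.1% of the 12143 genes again. For the difference between KMT2C and KMT2D siRNAs, DESeq2 called 2 genes and edgeR without the filter 24, against 0, and the range without single siRNA names was 0 to 0. The cause was not tested.

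Of 236 called genes named in the text, 231 kept their call and direction under every alternative. The exceptions lost only the call: CSF1R with DESeq2, KLHL9 without the block, SPINT2 without KMT2C siRNA3, TXNRD1 without any of 4 siRNA names, and TYRO3 under 5 alternatives. Uncalled genes that became called under at least 1 alternative were AXIN2, COL1A1 (0.86, adjusted p = 0.00151, without KMT2C siRNA2), H19, IFIT2, KMT2C, NPIPB3 and SCUBE3. Direction changed only in genes that were not called. Leaving out siRNA names, IFIT1 ran from -0.38 to 0.43, ISG15 from -0.18 to 0.44, KMT2D from -0.06 to 0.36, LYPLA1 from -0.18 to 0.15, MKI67 from -0.06 to 0.17, NFKBIA from -0.13 to 0.26, and NFKB1 from -0.19 to 0.12 (0.03 without the COLO357 KMT2C siRNA3 library alone). Without the block, IFIT1 was -0.32, ISG15 -0.27, LYPLA1 0.09 and NFKB1 0.01. With all 18 libraries ISG15 was -0.03, and without the filter NFKB1 was 0.01. The median of the KMT2 and COMPASS list changed sign, between 0.01 and -0.18. Low counts limit genes near 0 in a line, whose fold changes depend on few reads.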
